A study of Mus musculus with 4 samples.

Results

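Cornifying keratinocytes are the outermost living cells of the epidermis, and here they are the cells of mouse dorsal skin that carried transcripts of *Lor*, *Flg*, *Flg2* and *Hrnr*. They were chosen by their own measured values: a cell was kept if it held at least 10 transcripts in all and at least 5 transcripts of these 4 genes together. In the 10 skin sections 16299 of 363982 cells with at least 10 transcripts met this rule, and no cell that met it lay outside a section. Since the 4 genes selected the cells, their levels are given below as a description with no test. In every one of the 10 sections *Krt78*, *Krt77*, *Ivl*, *Krt1*, *Cnfn*, *Dsc1*, *Krt23*, *Rora* and *Dsg1a* were over 2-fold higher, as a share of all transcripts, than in the other keratin-rich cells, which were picked by at least 5 transcripts of 7 keratins (*Krt5*, *Krt15*, *Krt1*, *Krt77*, *Krt6a*, *Krt16* and *Krt17*) and at most 1 of the rule genes, so that *Krt77* and *Krt1* also entered the choice of the comparison cells. *Ivl* (involucrin) and *Cnfn* (cornifelin) are cornified envelope proteins, and *Dsc1* and *Dsg1a* are desmosomal cadherins of the upper epidermis. Not every gene of late cornification was over 2-fold higher in all 10 sections. Of a list of 10 others, *Dsg1b* was not, and *Cstdc5* and *Stfa3* were higher by any amount in 9 sections, *Tgm3* in 7 and *Mt4* in 6. Transcripts of the basal layer were not absent. The 9 basal genes listed summed to between 70994 and 127229 of each 1000000 transcripts in the cornifying cells of Control sections, against 54250 to 77420 in all other cells of these sections, dermis included.

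The data are Xenium in situ measurements of 328 genes on FFPE sections, in which each transcript is detected in place and assigned to a segmented cell. The mice carried TRE-Pitx1 and Krt5-rtTA, a Tet-On system in which the *Krt5* promoter, active in basal keratinocytes, drives the *Pitx1* transgene once doxycycline is given. PITX1+ mice ate doxycycline chow and Control littermates normal chow for 6 weeks. A female slide held Control sections 1 and 2 and PITX1+ sections 1 and 2, a male slide held Control section 3 and PITX1+ sections 3 and 4, and a second male slide held 1 Control and 2 PITX1+ sections taken on day 4 after full-thickness wounding. The labels give the conditions of a slide and not of a section, so conditions were taken from the order of the sections on each slide, and the number of cells in each unwounded section was closest to the total that the study's supplement lists for a section of the same condition. Sex and slide cannot be told apart. Neither can wounding and slide, since all wounded sections lay on a slide of their own. The study counts its unwounded PITX1+ sections as mice, but no label ties a section to a mouse, and p-values measure the spread between these sections. Sections held between 474847 and 5581930 transcripts in cells, and cornifying cells held between 47863 and 811997.

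As keratinocytes leave the basal layer they stop expressing *Krt5* and integrins, turn on *Krt1* and other spinous keratins, and finally fill with the granule proteins loricrin, filaggrin, filaggrin-2 and hornerin, which with small proline-rich proteins and involucrin are cross-linked by transglutaminases into the cornified envelope. The genes of the granule proteins lie together in a cluster known as the epidermal differentiation complex. The keratins *Krt6a*, *Krt16* and *Krt17* are described as absent from most healthy interfollicular epidermis, mark hair follicles, and appear in wounded and inflamed epidermis. *Krt17* was nevertheless abundant in the cornifying cells of Control sections here.

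The 250 bases upstream of the annotated starts of the 4 genes are shown because they define the cells and lie on the same chromosome. They are RefSeq sequences of build GRCm38.p6, written 5′ to 3′ on the strand of the gene, for *Lor* at chr3:92083143-92083392 on the minus strand, and on the plus strand for *Flg2* at chr3:93197023-93197272, *Flg* at chr3:93273296-93273545 and *Hrnr* at chr3:93319499-93319748. Capitals mark either of a pair of motifs that were searched on both strands. One is TGANTCA, bound by AP-1 factors such as *Jun* and *Fos*. The other is the core promoter element TATAAA.
Lor: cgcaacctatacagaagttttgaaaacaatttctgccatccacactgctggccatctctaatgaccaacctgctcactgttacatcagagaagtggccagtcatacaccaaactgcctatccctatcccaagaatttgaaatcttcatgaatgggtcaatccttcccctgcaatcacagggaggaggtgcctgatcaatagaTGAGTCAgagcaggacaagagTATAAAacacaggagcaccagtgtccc
Flg2: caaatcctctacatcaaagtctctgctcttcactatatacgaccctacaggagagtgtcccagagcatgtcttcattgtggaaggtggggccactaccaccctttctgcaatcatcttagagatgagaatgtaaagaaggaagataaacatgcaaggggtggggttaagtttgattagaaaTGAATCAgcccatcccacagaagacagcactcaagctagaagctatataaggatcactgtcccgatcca
Flg: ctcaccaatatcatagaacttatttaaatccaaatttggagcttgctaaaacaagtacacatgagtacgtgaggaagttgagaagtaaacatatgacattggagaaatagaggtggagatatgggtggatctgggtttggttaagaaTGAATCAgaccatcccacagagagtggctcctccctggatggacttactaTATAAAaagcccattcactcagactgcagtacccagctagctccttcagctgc
Hrnr: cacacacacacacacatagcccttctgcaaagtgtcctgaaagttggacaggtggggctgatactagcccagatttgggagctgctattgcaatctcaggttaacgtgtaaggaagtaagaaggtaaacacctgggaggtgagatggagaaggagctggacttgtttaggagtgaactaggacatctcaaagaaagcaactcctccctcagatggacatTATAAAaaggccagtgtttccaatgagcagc
TGANTCA was present in *Lor*, *Flg2* and *Flg* and absent from these letters of *Hrnr*, and 6.75% of all 32851 upstream stretches of this length held it. TATAAA was present in *Lor*, *Flg* and *Hrnr*, against 12.4% of all stretches. TAATCC, the motif bound by PITX and other bicoid-type homeodomain proteins, was in none of the 4, against 6.25% of all stretches.

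*Pitx1* itself was scarce in cornifying cells of either condition. In CPM, a gene's transcripts scaled to 1000000 transcripts of the same cells and the scale used for all levels here, it was at 25.5, 20.1 and 41.8 in Control sections 1 to 3 and at 19.3, 7.39, 116 and 64.5 in PITX1+ sections 1 to 4, from 2 to 16 transcripts a section. The male PITX1+ sections were the highest, and the female ones lay below the Control sections. In the other keratin-rich cells of the same sections *Pitx1* stood at 97.4, 121 and 0 in Control and at 51.7, 99.3, 1198 and 1051 in PITX1+. The male sections labelled PITX1+ thus held *Pitx1* in the other keratin-rich cells, whereas of the female sections labelled PITX1+ one lay below both female Control sections and the other between them. The share of the other keratin-rich cells with any *Pitx1* transcript was 0.840% in PITX1+ section 2 and 0.434% in PITX1+ section 1. It was 0.417% and 0.441% in the female Control sections, and 9.51% and 10.3% in the male PITX1+ sections. Cells with more transcripts have more chance to show one. The female PITX1+ sections were within 0.332% and 0.0856% of cell totals listed for PITX1+ sections. Where a direction below rests on the female slide, it is that of sections whose label the *Pitx1* level in CPM did not bear out. In the wounds the other keratin-rich cells held 59.1 in Control and 741 and 372 in PITX1+, and cornifying cells 43.8, 72.8 and 51.9. The PITX1+ difference of *Pitx1* in cornifying cells minus that in the other keratin-rich cells was -0.997 ± 1.27 on the log2 scale (SE, edgeR adjusted p = 0.664, 7 sections), which these few transcripts could not separate from 0.

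Neither the share of cells that were cornifying cells nor their density in the tissue passed the test between conditions. They made up 10.8%, 13.1% and 5.495% of cells in Control and 5.11%, 3.82%, 3.67% and 6.74% in PITX1+ sections, and the groups overlapped through Control section 3. The mean difference was -4.95 percentage points (exact permutation test, two-sided p = 0.0571, adjusted over 5 section measures p = 0.143), and 0.0286 is the smallest p that 3 against 4 sections allow. PITX1+ sections had 28005 to 75268 cells in all and Control sections 11778 to 17335, and the part of this in the share was not tested. Within slides the difference in share was -7.47 percentage points on the female and -0.291 on the male slide. Per mm2 of tissue there were 310, 288 and 130 cornifying cells in Control and 301, 243, 186 and 269 in PITX1+ sections, a difference of 7.43 (exact permutation p = 0.886, adjusted p = 0.886) that had opposite signs within the slides, at -26.9 on the female and 98.2 on the male slide. Within 100 µm of the outer edge of the section, a limit set after the maps were seen, cornifying cells were 30.02%, 31.3% and 20.3% of the cells in Control and 33.2%, 27.4%, 24.99% and 27.0% in PITX1+ sections.

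Most cornifying cells lay near the outer edge. In Control sections 99.4%, 99.3% and 92.1% of them were within 100 µm of the outer edge, against 86.9%, 80.6%, 85.7% and 97.0% in PITX1+ sections, so that 12, 11 and 55 cells lay deeper in Control and 382, 557, 201 and 57 in PITX1+ sections. The groups overlapped through PITX1+ section 4, and this was not tested. The deeper cells differed in content from those at the surface. *Krt79*, a keratin of the follicle opening and sebaceous duct, was at 30303 to 43315 in the few deep Control cells and at 23815 to 74928 in the deep PITX1+ cells, against 1728 to 6383 in the cells near the edge of all 7 unwounded sections. *Krt77*, a keratin of the interfollicular epidermis, was lower in deep cells than near the edge in all 7 unwounded sections, at 953 to 18271 against 10821 to 90876 in PITX1+ sections and at 11532 to 98788 against 114220 to 125711 in Control sections. The median distance to the nearest basal cell was 15.5, 17.2 and 20.8 µm in Control and 22.8, 25.3, 26.8 and 17.8 µm in PITX1+ sections, which overlapped (difference 5.34 µm, exact permutation p = 0.114, adjusted p = 0.19; 7.71 on the female and 1.47 on the male slide).

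**Figure D1:**
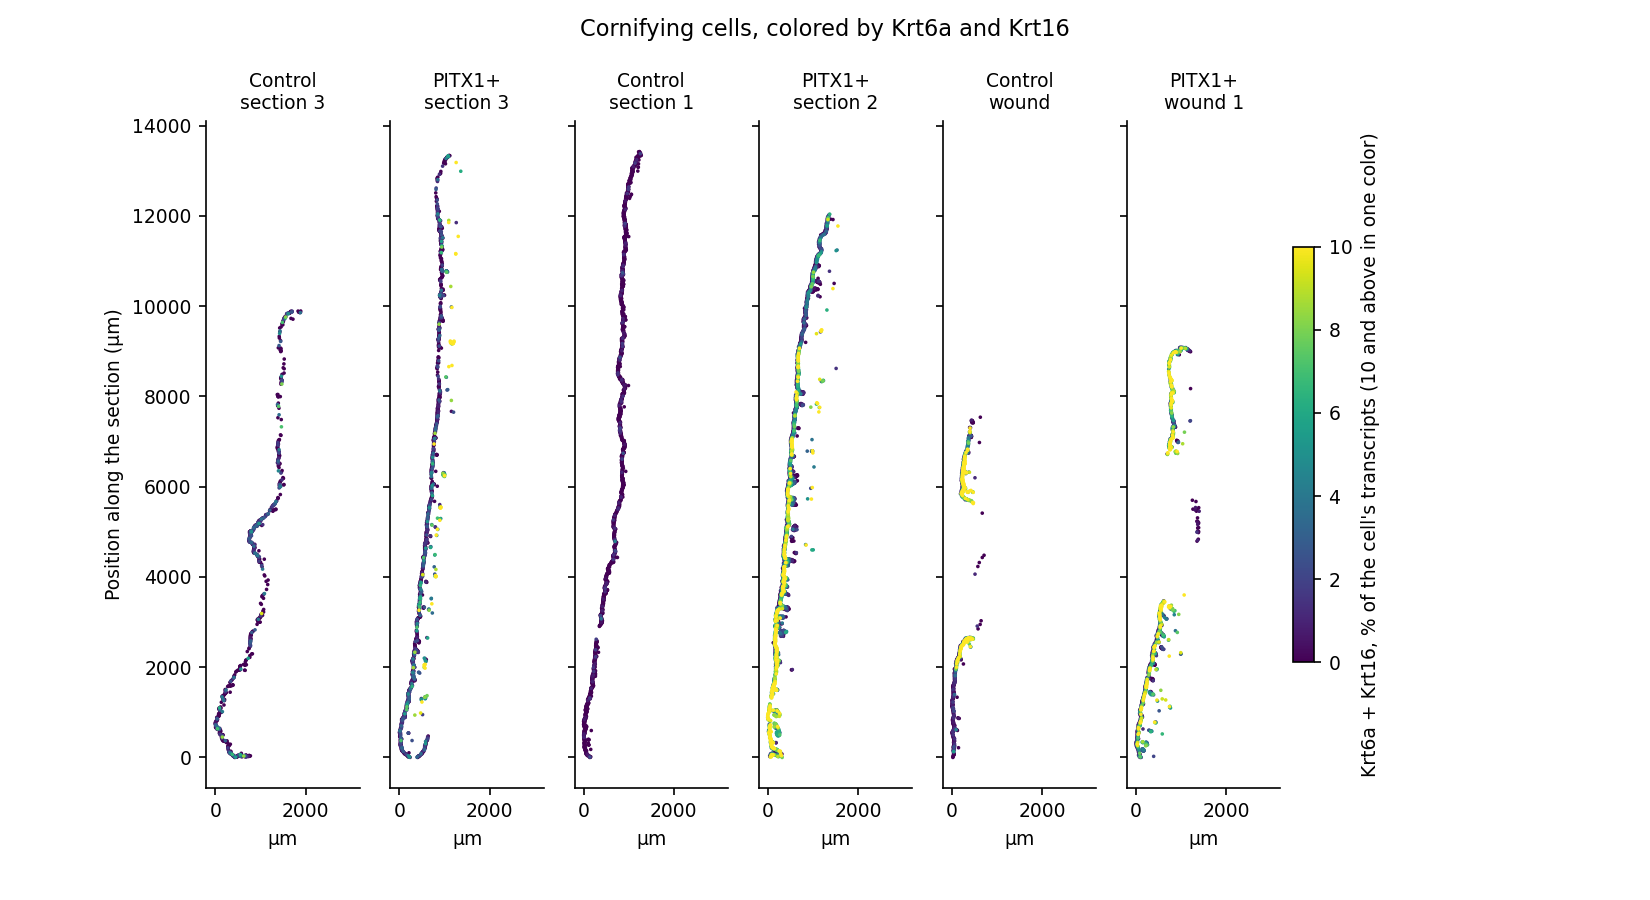
Positions of cornifying cells in 6 of the 10 skin sections, each from its own origin in µm, with the outer edge of the skin on the left and each cell colored by the percent of its transcripts that were *Krt6a* or *Krt16*. The cells trace the skin surface, with deeper clusters in the PITX1+ sections and a stretch almost without cornifying cells, 3000 and 3200 µm long, in the 2 wounds shown.

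The 4 genes that chose the cells did not contribute alike. In Control sections 1 and 2 *Flg2* and *Lor* led and *Flg* was minor: *Lor* was at 71209 and 68903, *Flg2* at 77050 and 77319, *Hrnr* at 23375 and 21543 and *Flg* at 6641 and 6162. In the female sections labelled PITX1+ *Lor* was at 108116 and 77530, *Flg* at 102976 and 68260, *Hrnr* at 68282 and 56515 and *Flg2* at 38629 and 18454. *Flg* was thus the lowest of the 4 in the Control pair and *Flg2* in the PITX1+ pair. On the male slide *Flg2* led everywhere, at 104862 in Control and at 71716 and 62479 in PITX1+ sections. *Flg* there was at 21770 in Control and at 48041 and 32104 in PITX1+, *Lor* at 35414 against 31463 and 42819, and *Hrnr* at 36166 against 36355 and 47826. The wounds resembled the female sections labelled PITX1+ in this respect, with *Flg* at 57730 to 85789 and *Flg2* at 14003 to 20062 in the Control and PITX1+ wounds alike. All 4 genes were found together in 27.0% to 32.3% of the cells of Control sections, in 44.4% to 63.3% of those of PITX1+ sections and in 44.8% to 52.0% in wounds, and deeper-read cells have more chance to show all 4: the median cell held 54 to 99 transcripts in Control, 76 to 258 in PITX1+ and 189 to 231 in wounded sections.

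**Figure D2:**
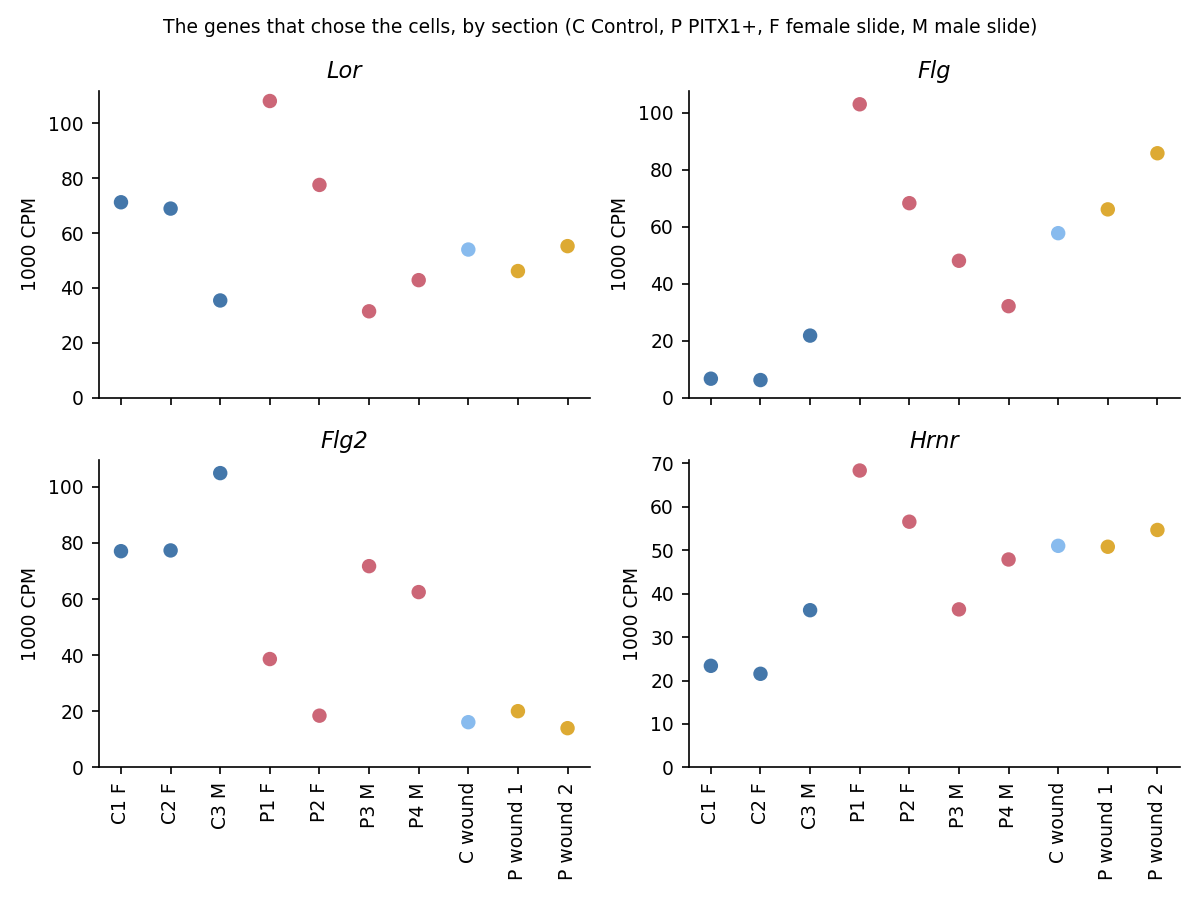
Level of each rule gene in the summed cornifying cells of a section, in units of 1000 CPM, 1 point a section (C Control, P PITX1+, F female slide, M male slide). *Flg2* was at 62479 or more in the male and the Control sections and at 38629 or less in the female PITX1+ sections and the wounds.

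The amount of rule transcripts in a cell tracked its position and content. Cells just inside the threshold, with 5 rule transcripts, numbered 338 in Control and 604 in PITX1+ sections, and cells just outside it, with 4, numbered 392 and 749. Those with 5 held *Krt77* at 91412 to 103127 in Control and 5109 to 59270 in PITX1+ sections, and those with 4 held 79028 to 93082 and 2699 to 50180. Cells with 50 or more were 3.75%, 2.40% and 1.00% of the cornifying cells of Control sections, 43.8%, 42.4%, 4.56% and 11.1% of those of PITX1+ sections and 29.2% to 40.8% of those of wounds. From cells with 5 to 9 to those with 50 or more, the median over Control sections of the distance to the outer edge went from 24.6 to 10.96 µm and that over PITX1+ sections from 36.7 to 17.4 µm. *Krt5*, the basal keratin, went from a median of 49800 to 9494 in Control and from 25227 to 6665 in PITX1+ sections. These gradients share the cells' depth and are given as a description.

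Transcripts in cornifying cells lay mostly away from the nucleus, which was also the smaller part of the cell's area. Leaving out the rule genes, 44.7%, 41.8% and 40.7% of their transcripts were over the nucleus in Control and 32.0%, 26.4%, 31.6% and 36.7% in PITX1+ sections, and the groups did not overlap (difference -10.7 percentage points, exact permutation p = 0.0571, adjusted p = 0.143; -14.05 on the female and -6.51 on the male slide). The wounds were at 25.7% in Control and 29.2% and 23.8% in PITX1+. Median cell area was 166, 195 and 206 µm2 in Control sections 1 to 3 and 144, 165, 199 and 195 µm2 in PITX1+ sections 1 to 4. The part of nucleus and cell area in these shares was not tested. Median nucleus area was 24.8, 23.7 and 24.4 µm2 in Control sections, 36.1 and 38.7 µm2 in the female and 24.1 and 21.7 µm2 in the male PITX1+ sections, and the female PITX1+ sections alone were larger (difference over both slides 5.85 µm2, exact permutation p = 0.4, adjusted p = 0.5; 13.2 within the female and -1.51 within the male slide). Genes differed in this respect too: over the 10 sections the median share over the nucleus was 17.0% for *Lor*, 22.1% for *Ivl* and 58.8% for the transcription factor *Trp63*, and 13.3% for *Rxra*, which in the other keratin-rich cells was at 53.6%.

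The most abundant genes beyond the rule genes, by the mean of their share over the 10 sections, were *Krt77*, *Krt1*, *Krt17*, *Dsc1*, *Rxra*, *Sprr2a3*, *Krt5*, *Dsg1a*, *Krt23* and *Crabp2*. The spinous keratins gave 2 contrasting patterns. *Krt77* was at 125358, 117588 and 113156 in Control sections, at 30885 and 9485 in the female and 66086 and 87782 in the male PITX1+ sections, and at 3660 to 15068 in the wounds. Every PITX1+ section and wound lay below every Control section, although the fit over both slides did not call it (-0.91 ± 0.65, edgeR adjusted p = 0.412) and it was called lower on the female slide on library size alone. *Krt1* was at 16103, 21777 and 48806 in Control, 93932 and 74690 in the female PITX1+, 59051 and 49696 in the male PITX1+ sections and 56080 to 66118 in the wounds. *Rxra*, a retinoid X receptor, went with the slide: it was at 9162 and 13882 in the female and 56516 in the male Control section, and at 4934 and 2149 in the female and 97417 and 36030 in the male PITX1+ sections.

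Over both slides, with slide as a covariate, 2 of 317 genes tested were called, both higher in the cornifying cells of PITX1+ sections, *S100a8* among them (0.631%; edgeR quasi-likelihood test, Benjamini-Hochberg adjusted p under 0.05; 74 genes at an unadjusted p under 0.05). *S100a8*, a calcium-binding alarmin of neutrophils and stressed epidermis, was at 107, 134 and 0 in Control and at 1577, 1925, 489 and 36 in PITX1+ sections (log2 difference 5.72 ± 1.01 SE, edgeR adjusted p = 0.0451). PITX1+ sections 1 to 3 exceeded the Control sections of their own slide, while PITX1+ section 4, with 9 transcripts, lay under the level of 62.7 that 3 counts would be in Control section 3. Of the 63 transcripts in PITX1+ section 3, 60 lay in its 201 deep cells, and its cells near the edge were at 29.6, under that level too. Near the edge PITX1+ section 4 was at 16.7, and PITX1+ sections 1 and 2 were at 1590 and 1754. The next genes missed the threshold together, with an edgeR adjusted p of 0.0653, among them *Slpi* (6.76 ± 1.39), *Sprr1b* (6.28 ± 1.54), *Krt4* (5.00 ± 1.21), *Sprr1a* (4.14 ± 0.89), *Gsdmc* (3.92 ± 0.96), *Tgm3* (3.91 ± 0.94), *Dsc2* (3.57 ± 0.87) and *Areg* (2.63 ± 0.60). Scaling weighs on all fitted differences, since TMM, which centers the bulk of the genes, gave factors of 0.3705 and 0.6005 in the female PITX1+ sections and 1.106 to 1.635 elsewhere. On TMM the median gene changed by -0.09, on plain library size by -1.20, and library size gave 13 higher and 7 lower genes in place of 2 and 0. Without Control section 1 or 2, or without PITX1+ section 1, no gene was called, and without Control section 3 there were 95 calls, so the count depended on single sections.

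Taken alone, the female slide showed a broad change. Of 321 genes 64 were higher (19.9%) and 52 lower (16.2%) in the sections labelled PITX1+ (edgeR adjusted p under 0.05, 2 sections against 2). On library size, where the median gene changed by -1.98 in place of -0.27, the split was 35 higher and 230 lower, and so only groups that moved the same way on both scales are given a direction. Of the 5 small proline-rich genes, precursors of the cornified envelope, 4 were higher on either scale: *Sprr2a3* was at 1161 and 1298 in Control and 29546 and 49609 in PITX1+ sections (log2 6.88 ± 0.70, edgeR adjusted p = 0.00373), and *Sprr2d* at 250 and 274 against 12068 and 24695. The list median was 6.88 against -0.27 for all genes, and 5.01 against -1.98 on library size. Of the 10 other late cornification genes 8 were higher, and 7 on library size with 1 lower, with a median of 2.97 on TMM and 1.13 on library size. *Cstdc5* and *Stfa3*, inhibitors of cysteine proteases of the stefin group, went from 382 and 368 to 19889 and 26335 and from 143 and 154 to 6435 and 9943.

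The stress keratins were also higher on the female slide, although unevenly. *Krt16* was at 295 and 335 in Control and 8243 and 26336 in PITX1+ sections (7.74 ± 1.03, edgeR adjusted p = 0.0061) and *Krt6a* at 407 and 482 against 1811 and 18908 (6.60 ± 1.47, adjusted p = 0.0208, edgeR). *Krt17*, at 47758 and 51268 against 42713 and 77333, was called higher on TMM (2.17 ± 0.59, adjusted p = 0.0374, edgeR) but not on library size (0.28 ± 0.38, adjusted p = 0.487, edgeR). Near the edge of Control sections 1 to 3 *Krt17* was at 47600, 51081 and 36667, so it was no mark of stressed cells alone. Of 7 genes of oral differentiation 6 were higher, 4 of them on library size too, among them *Krt4*, a keratin of non-cornified mucosa, at 56 and 67 against 514 and 1789. The others, *Krt23* and *Aldh1a3*, were called on TMM alone: *Krt23* was at 26013 and 23369 in Control and lower, at 20406 and 13410, in PITX1+ sections (log2 -0.55 ± 0.36 on library size, edgeR adjusted p = 0.169), and *Aldh1a3* was at 443 and 361 against 416 and 904. Basal genes went the other way: 8 of 9 were lower, and 9 on library size, with *Krt15* at 29496 and 40155 in Control and 229 and 86 in PITX1+ sections (-6.17 ± 0.50, edgeR adjusted p = 0.0031) and *Col17a1*, a hemidesmosome collagen, at 17580 and 24366 against 1146 and 394. Of all 321 genes 52 were lower on TMM and 230 on library size, so the count on library size says little by itself. The basal median was -1.83 against -0.27 for all genes on TMM, and -3.46 against -1.98 on library size. At least 1 transcript of the 9 basal genes was found in 90.6% and 94.8% of the cornifying cells of the female Control sections and in 60.2% and 56.3% of those of the female PITX1+ sections, and the part of this in the other differences was not tested. In cells with no more than 1 transcript of the basal genes, a limit chosen after seeing the data, the fit over both slides called 11 genes higher and 3 lower. The 12 transcription factors of differentiation depended on the scale, with 8 higher and 0 lower on TMM and 0 higher and 4 lower on library size. *Klf4*, among the higher on TMM (1.85 ± 0.41, adjusted p = 0.0206, edgeR), was at 8260 and 7533 in Control and 7632 and 8563 in PITX1+ sections.

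On the male slide, where *Pitx1* bore out the labels, few genes were called, and none when the deeper cells were left out. In 1 Control against 2 PITX1+ sections 4 of 286 genes were higher (1.4%) and none lower (edgeR adjusted p under 0.05; 23 genes at an unadjusted p under 0.05, and the spread came from the pair of PITX1+ sections alone, which the single Control section was assumed to share). They were *Slpi*, a secreted inhibitor of neutrophil elastase, at 125 in Control and 6926 and 1125 in PITX1+ sections (4.74 ± 1.09, adjusted p = 0.0028, edgeR), *Krt75*, a keratin of the companion layer of the hair follicle, at 146 against 4022 and 895 (3.81 ± 1.03, adjusted p = 0.0179, edgeR), *Dsg4*, a desmoglein of the hair shaft, and *Lrrc15*. The last 2 had no transcript in Control section 3. *Dsg4* was at 908 and 177 in the PITX1+ sections, whose mean was at least 8.66-fold higher than 3 counts in Control, and at least 2.83-fold without PITX1+ section 3. *Lrrc15* was at 2718 and 331, at least 24.3-fold higher, and at least 5.27-fold without PITX1+ section 3. PITX1+ section 3 was the higher of the pair for all 4. In its deep cells *Krt75* was at 16411, *Lrrc15* at 11342, *Dsg4* at 2772 and *Slpi* at 26586, against 671, 385, 404 and 1608 near the edge, and *Krt16* was at 28920 against 434. In PITX1+ section 4 the same contrast held, with *Krt75* at 13491 in 57 deep cells and 443 near the edge. When only cells within 100 µm of the edge were summed, no gene was called on the male slide (16 at an unadjusted p under 0.05, edgeR), but the fitted differences did not vanish: *Slpi* was at 2.81, *Dsg4* at 8.09 and *Lrrc15* at 8.18, each with an adjusted p of 0.472, and *Krt75* at 1.92 with 0.635. *Dsg4* and *Lrrc15* had no transcript near the edge of Control section 3, so that their fitted values depend on the prior count. On the female slide the same restriction left 63 higher and 49 lower genes.

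*Krt6a* near the edge was at 7899 in the male Control section and at 7813 and 9028 in the male PITX1+ sections, and *Sprr2a3* at 2670 against 5140 and 7538. Over all male cornifying cells *Flg2*, *Krt77* and *Fcgbp* were lower and *Flg*, *Sprr1a*, *Gsdmc* and *Il1rn* higher in both PITX1+ sections than in Control section 3, as levels picked after they were seen. Of these genes *Sprr1a* was called on library size alone (edgeR), and *Flg2* and *Flg*, as rule genes, are given without a test. *Gsdmc*, a gasdermin, was at 1003 in Control and at 4053 and 4168 in PITX1+ sections, which were alike. *Il1rn* was at 2821 in Control and at 3106 and 3652 in PITX1+ sections. *Sprr1a* near the edge was at 292 in Control and at 908 and 1403 in PITX1+ sections, whose deep cells held it at 49234 and 51407. *Barx2*, a homeobox factor, was at 7312 against 12136 and 10791.

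**Figure D3:**
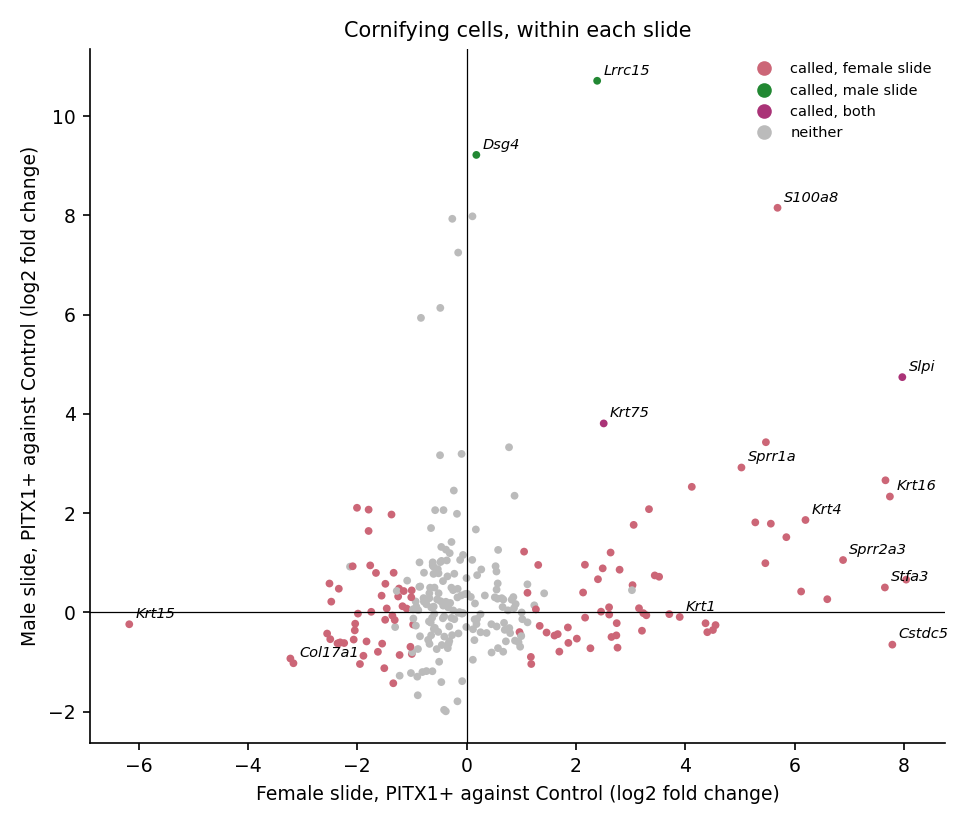
Log2 difference between PITX1+ and Control in cornifying cells on the female slide (horizontal) and on the male slide (vertical), 1 point for each of the genes fitted on both slides, colored by the edgeR call within each slide. Most called genes lie along the horizontal axis, and *Krt75* and *Slpi* were called on both slides on TMM. On library size *Krt75* was not called on the female slide (0.57 ± 0.56, edgeR adjusted p = 0.346), where it was at 224 and 227 in Control and 180 and 488 in PITX1+ sections. *Lrrc15*, *Dsg4* and *S100a8* were at 0 in the male Control section, so that their height in the plot depends on the prior count.

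The difference between the slides was itself tested. The PITX1+ difference departed between the male and the female slide for 30 of 321 genes (9.35%; condition by slide interaction, edgeR adjusted p under 0.05), and for 22 of these it was lower on the male slide. The smallest adjusted p belonged to *Cstdc5*, which was at 1337 in the male Control and 877 and 1141 in the male PITX1+ sections (male minus female difference -8.34 ± 0.75, edgeR adjusted p = 0.00274). *Gm2a*, *Stfa3*, *Sprr2d* and *Sprr2a3* followed at -4.72 ± 0.73, -7.07 ± 0.98, -7.30 ± 1.09 and -5.73 ± 0.83, each with an edgeR adjusted p of 0.0107. Of the 10 other late cornification genes 6 departed in this way, of the small proline-rich genes 2 of 5, and *Krt15* in the opposite direction. *Krt16* and *Krt6a* did not pass (adjusted p = 0.0717 and 0.0544, edgeR interaction). On library size 108 genes departed upward and 12 downward, in place of 8 and 22. All 9 basal genes were then among the former, *Krt16* and *Krt6a* were both among the latter, and 3 in place of 6 of the other late cornification genes departed. Of the 30 genes 29 were also called when only cells within 100 µm of the edge entered.

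**Figure D4:**
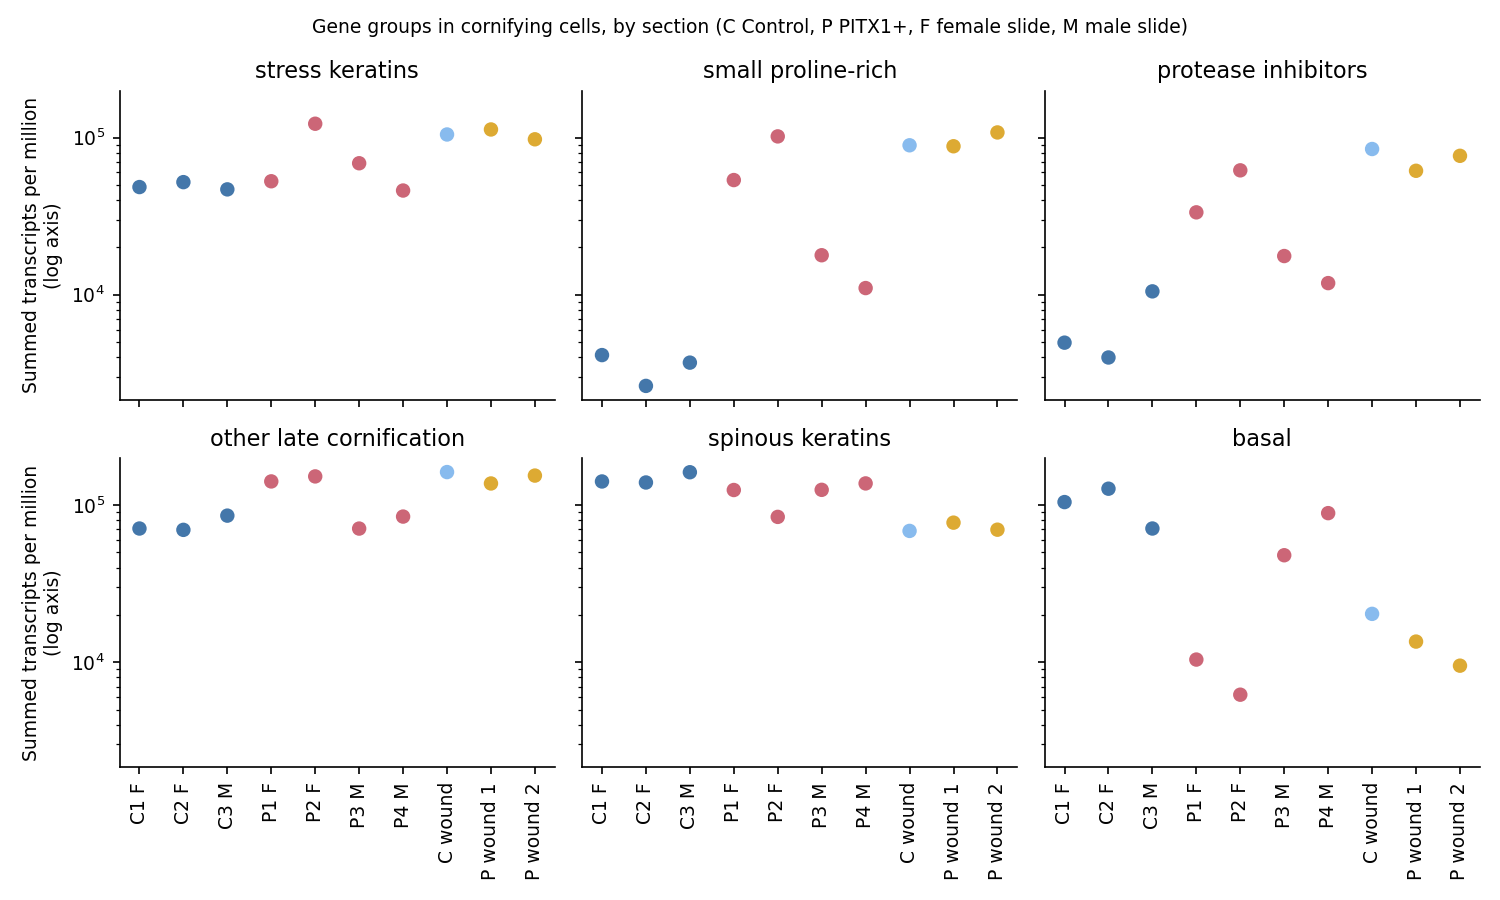
Summed level of 6 gene groups in the cornifying cells of each section, in CPM on a log axis (C Control, P PITX1+, F female slide, M male slide). Small proline-rich genes were at 2629 to 4130 in Control sections, 11029 to 101823 in PITX1+ sections and 88117 to 107897 in wounds, and basal genes were at 6217 in PITX1+ section 2.

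Set against the other keratin-rich cells of the same sections, the PITX1+ difference in cornifying cells departed for 20 of 317 genes (6.31%; interaction blocked by section, edgeR adjusted p under 0.05; the 7 keratins that picked the comparison cells were left out), 11 of them upward. On library size 7 genes departed, 1 of them upward, namely *Krt78*. The comparison cells, picked without regard to position, numbered 2126 to 3116 in Control and 9674 to 26773 in PITX1+ sections. They held the hair gene *Shh* at 29.2 to 247 in Control and 612 to 3286 in PITX1+ sections. Their make-up thus differed between conditions, and the part of this in the departures was not tested. The difference of *Gsdmc* was larger in cornifying cells (log2 3.87 ± 0.51, edgeR adjusted p = 0.00084): it was lower there than in the other keratin-rich cells in both female Control sections, at 474 against 839 and 381 against 641, slightly higher in Control section 3, at 1003 against 876, and higher in every PITX1+ section, at 4046 against 1079, 6903 against 3020, 4053 against 289 and 4168 against 293. *Stfa3* (3.32 ± 0.53, adjusted p = 0.0023, edgeR) and *Sprr2a3* (2.65 ± 0.53, adjusted p = 0.0106, edgeR) departed in the same direction. *Krt78* did so as well (3.57 ± 0.49, adjusted p = 0.00096, edgeR): in cornifying cells it stayed between 9939 and 16736 in all 7 sections, while in the other keratin-rich cells it was at 1898 to 2621 in Control and 188 to 498 in PITX1+ sections. *Acta2*, smooth muscle actin, departed downward (-2.39 ± 0.53, adjusted p = 0.0235, edgeR), with 16.0 to 171 in all cornifying cells and 145 to 248 in Control against 411 to 1526 in PITX1+ keratin-rich cells.

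Cornifying cells held fewer transcripts of most other lineages than the remaining cells, but not of all. The 6 fibroblast genes summed to 4308 to 10959 in Control, 1680 to 10545 in PITX1+ and 825 to 2783 in wounded sections, against 45175 to 179011 in the cells that were not cornifying cells. The 8 immune genes summed to 4220 to 5747, 1152 to 5184 and 2398 to 3697, and the 6 neutrophil genes to 439 to 886, 246 to 536 and 804 to 1139. *S100a8*, which is not in the neutrophil list, is shared with neutrophils, and in wounds the cells that were not cornifying cells held neutrophil genes at 12756 to 26998. The 6 hair genes summed to 355 to 1013 in Control and 382 to 6344 in PITX1+ sections, and the 6 muscle and nerve genes to 1003 to 2969 and 239 to 2310. The 5 sebaceous genes were not scarce: they summed to 9757 to 10654 in Control, 13081 to 19679 in PITX1+ and 7245 to 17993 in wounded sections, against 18227 to 30555, 25633 to 43687 and 10355 to 18413 in the remaining cells, and in PITX1+ wound 2 they were higher in cornifying cells, at 13325 against 10355. On the female slide *Krt79*, *Scd2* and *Cidea* of this list were called higher in the cornifying cells of PITX1+ sections on TMM and on library size (edgeR), and *Elovl6* lower on library size alone, beside the gene groups that moved there. Deep cells of PITX1+ sections 1 and 2 held *Krt79* at 74928 and 50940 and *Cidea* at 1637 and 1014. Near the edge *Krt79* was at 5881 and 3985, against 3402 and 3256 in Control sections 1 and 2. *Cidea* there was at 121 and 412 against 133 and 141, so PITX1+ section 1 was not higher. The 4 vascular genes summed to 251 to 845 in Control, 484 to 4062 in PITX1+ and 385 to 2052 in wounded sections, against 5233 to 8922 in the remaining cells of all 10. The high values were those of 1 gene, the receptor *Flt1*, with 3785 in PITX1+ section 1 and 2349 in PITX1+ section 2 (higher on the female slide on TMM and on library size), while *Cdh5*, *Vwf* and *Pecam1* were called lower there on library size and not called on TMM. In the deep cells of these 2 sections *Flt1* was at 24948 and 11461, against 2000 and 869 near the edge. Near the edge of Control sections 1 and 2 *Flt1* was at 174 and 175. Every gene of these lists had at least 1 transcript in the cornifying cells of every section, except 1 hair gene and 2 neutrophil genes in Control section 3. With only cornifying cells that held no more than 1 transcript of the fibroblast, immune, vascular, muscle and nerve genes, the fit over both slides called 12 of 288 genes, 11 of them higher (edgeR). The part of the hair, sebaceous and neutrophil genes was not tested beyond the restriction to cells near the edge. Cycling genes summed to 7960 to 11871 in Control and 1445 to 9530 in PITX1+ sections.

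Within a section the cells were not uniform along the skin. In stretches of 1 mm with at least 20 cornifying cells near the edge, *Krt16* ranged from 82.4 to 500 over the 14 stretches of Control section 1 and from 92.6 to 617 over the 13 of Control section 2. In PITX1+ section 2 it ranged from 13668 to 49782 and *Krt6a* from 1475 to 47451, while *Krt77* ran from 0 to 55873 with a median of 1121. In PITX1+ section 1 *Krt16* ranged from 3953 to 10401, so that its lowest stretch still exceeded the highest of either female Control section. On the male slide the *Krt16* medians were 0 in Control section 3, 168 in PITX1+ section 3 and 71.6 in PITX1+ section 4. Each of these medians stood for few or no transcripts in a stretch, and the highest stretch of Control section 3 was at 1889. Summed over all cells near the edge, *Krt16* ran the other way. It was at 673 in Control section 3 and at 434 and 196 in PITX1+ sections 3 and 4, from 30, 44 and 47 transcripts. *Krt6a* on the male slide ranged over the stretches from 5618 to 13672 in Control and from 3863 to 13925 in PITX1+ sections, which overlapped.

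The wounds showed what cornifying cells express next to an injury. They made up 4.20% of cells in the Control wound (95% exact binomial interval 3.92 to 4.50) and 2.91% (2.74 to 3.08) and 1.82% (1.72 to 1.93) in PITX1+ wounds 1 and 2, intervals that cover counting error only. The wounds were compared by their values and no test was made. A stretch of 3000, 3200 and 3400 µm along the section held almost no cornifying cells, and distances below run from its ends, which were set after the maps were seen. In the Control wound *Krt16* near the outer edge was at 48917 (95% exact Poisson interval of counting error 47617 to 50245) within 500 µm, 47051 from 500 to 1000 µm, 11677 from 1000 to 2000 µm and 678 (325 to 1247) beyond. *Krt77* ran the other way, at 182, 1943, 48971 and 73851, and *S100a8* was at 19600, 19041, 1750 and, beyond 2000 µm, at 0 transcripts, where 3 counts would be a level of 203. All cornifying cells of the unwounded male Control section, on another slide, were at 627 for *Krt16* and 113156 for *Krt77*.

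With both sides pooled, *Krt16* and *S100a8* in the PITX1+ wounds did not fall to such low levels with distance. Beyond 2000 µm *Krt16* was at 32921 (31601 to 34283) in wound 1 and 32035 (30983 to 33114) in wound 2, against 43276 and 47719 within 500 µm. *S100a8* beyond 2000 µm was at 12403 and 16840. Near the edge of the unwounded male PITX1+ sections 3 and 4 *Krt16* was at 434 and 196 and *S100a8* at 29.6 and 16.7. These sections lay on another slide, so wounding and slide cannot be told apart in this contrast. *Krt77* was lowest within 500 µm here too, at 884 and 1427, then at 31632 and 3512 from 500 to 1000 µm and at 24304 and 10658 from 1000 to 2000 µm, and beyond that at 11363 and 1517, below the 73851 of the Control wound. The 1 mm stretches of the wounds were uneven, however, with *Krt16* at 551 to 50101 over 6 stretches of the Control wound, 22951 to 52911 over 7 of PITX1+ wound 1 and 1371 to 57994 over 9 of PITX1+ wound 2. The 1371 was at an end of wound 2, with *Krt77* at 53359, and *Krt16* was at 21987 and 57994 in the stretches next toward the wound. In the Control wound the low values, 551 and 1462, lay on the same side, and the other side ended at 24408. *Krt4* had 8 transcripts in all cornifying cells of the Control wound and was at 2613 and 3633 in the PITX1+ wounds, highest in wound 2 within 500 µm at 9487. *Crabp2*, which carries retinoic acid, was at 12500 in the Control wound and 20370 and 16743 in the PITX1+ wounds, and *Aldh1a3*, a retinoic acid synthesizing enzyme, at 1693 against 2938 and 1583. Over all their cornifying cells the 3 wounds differed less in some genes chosen after their values were seen: *Krt16* was at 39490, 35447 and 31192, *Sprr2d* at 32297, 23167 and 32732, *Cstdc5* at 36650, 24375 and 32705 and *Lor* at 53976, 46133 and 55217.

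**Figure D5:**
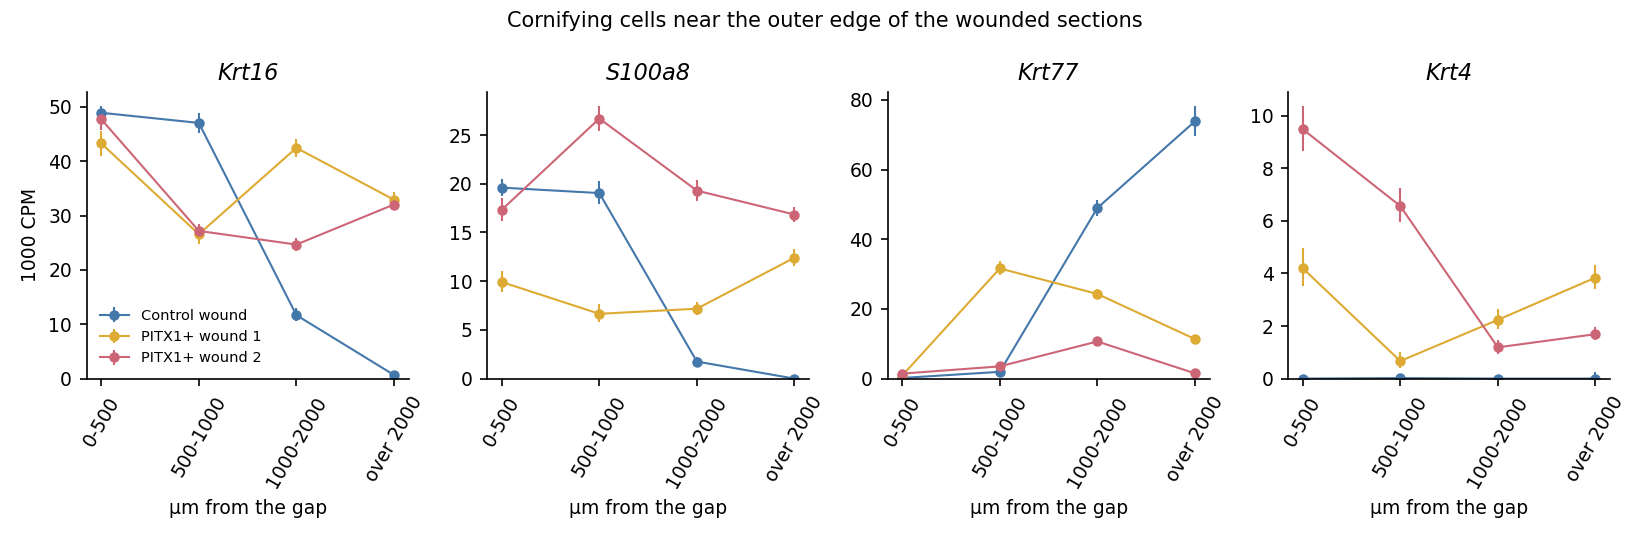
Level of 4 genes in cornifying cells within 100 µm of the outer edge of the wounded sections, in units of 1000 CPM, by distance along the section from the stretch without such cells, with 95% exact Poisson intervals of counting error. In the Control wound *Krt16* was at 48917 within 500 µm and 678 beyond 2000 µm, while the PITX1+ wounds were at 32921 and 32035 beyond 2000 µm.

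Cells of the buccal mucosa that met the same rule serve as a yardstick for oral differentiation. There were 6211 of them in 6 of 7 buccal sections, and 0 of 2449 cells in the other one, which allows a share of up to 0.122%. The 4 rule genes chose these cells too, so their levels are a description and not a trait found to be shared with skin. *Lor* was at 58404 to 66691, *Hrnr* at 6414 to 15415, *Flg* at 98.2 to 462 and *Flg2* at 7.10 to 48.2. Most of the buccal cells thus met the rule through *Lor*. Of genes outside the rule, these buccal cells held *Krt77* at 0 to 12.0. *Krt4* was at 112130 to 138650 and *Tgm3*, an epidermal transglutaminase, at 57441 to 69017 in them. In skin cornifying cells *Krt4* reached at most 3633, in PITX1+ wound 2, and *Tgm3* at most 7227, in PITX1+ section 2. *Pitx1*, at 481 to 793 in the buccal cells, was at 116 at most in the skin cells. *Slpi* was at 74989 to 86248 in the buccal cells and at 23047 in PITX1+ section 2, and *Sprr2a3*, at 15022 to 49439, overlapped the levels of the female PITX1+ sections and the wounds.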

How the data were processed

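Per the labels, Xenium was run on FFPE skin and buccal sections. The authors deposited, for each slide, whole-number transcript counts per cell and a list of transcripts with a quality score. Software version, segmentation and genome build are not given in the sources used here. Transcripts with a deposited quality score of at least 20 were summed per cell and gene, which gave the deposited counts of every cell. Sections are cells chained within 100 µm (200 µm on the wounded slide) with at least 2000 cells, ordered by mean horizontal position. Few cell identifiers recurred between slides (at most 7 between a pair).

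Counts of cornifying cells were summed per section and fitted with edgeR 4.0.16 (filterByExpr, TMM, quasi-likelihood F test, slide as covariate) in R, with DESeq2 1.42.0 as an alternative. Only the edgeR fits were tested on simulated counts. In that simulation of the PITX1+ comparison, on 319 genes, 97% of 4-fold changes were recovered, and in that of the interaction of condition and slide, on 321 genes, 32% of 4-fold changes. The simulated counts had a common dispersion, estimated with the slide interaction in the model, and in the PITX1+ comparison the same change on both slides. The 97% therefore leaves out the spread between slides that these data held. The SE printed after ± was back-calculated, as the absolute log2 difference divided by the square root of its F statistic. Section measures were compared by two-sided exact permutation tests. Named genes were the rule genes, the 10 most abundant genes, genes called over both slides without overlap within either slide, 23 genes of interest, the 5 smallest adjusted p of each interaction and examples from the gene lists; further genes were chosen after their values were seen, and 1 gene called over both slides is not reported here. The members, lists and tests were chosen with earlier results of these data known. Alternatives varied scaling, filters, the rule, cell position and sections. Cell boundary files were not used. Intervals cover counting error only.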

Additional observations from a re-analysis of the deposited data

Results flagged for a closer look

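Among the 4 unwounded PITX1+ sections, *Krt23* in PITX1+ section 1 stood apart from the other 3, at 20406 CPM against 12041 to 13410. 28 genes and 5 section measures were looked at in this way, and chance sets about 1 in 20 such groups apart.

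The PITX1+ difference departed between the female and the male slide for the 5 genes with the smallest adjusted p of the interaction (edgeR). The male minus female difference on the log2 scale was -8.34 for *Cstdc5*, -4.72 for *Gm2a*, -7.07 for *Stfa3*, -7.30 for *Sprr2d* and -5.73 for *Sprr2a3*. Each kept its direction and its call in all 12 alternatives run. The female sections labelled PITX1+, on which these values rest, did not show the *Pitx1* level of the male ones, and slide and sex cannot be told apart.

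Outside skin, 6211 cells of the buccal sections met the rule for cornifying cells.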

How the results depend on the processing

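Over both slides 2 genes were called, and the count moved with most settings: 20 with library size, 69 with DESeq2, 0 without the slide covariate (58 at an unadjusted p under 0.05, edgeR), 6 with transcripts over the nucleus, 0 with at least 3 rule transcripts (83 unadjusted, edgeR), 20 with 5 to 19, 12 with no more than 1 transcript of other lineages and 0 to 95 with 1 section left out. Of the settings chosen after seeing the data, low basal transcripts gave 14, the female slide alone 116 (265 with library size, 112 near the edge) and the male slide alone 4 (5 with library size, 0 near the edge). All 95 genes called without Control section 3 were among the 116 of the female slide. *S100a8* kept its direction in 26 alternatives and its call in 18 of them. Genes departing from the other keratin-rich cells numbered 20, 7 with library size, 11 with at least 10 rule transcripts and 3 to 27 with 1 section left out. Genes departing between slides numbered 30, 120 with library size, 48 with DESeq2 and 10 to 27 with 1 section left out, and without Control section 3 this fit could not be made.

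The difference in share passed 0.05 with at least 3 rule transcripts (-6.15 percentage points), with cells thinned to 20 transcripts (-8.31) and, a setting added after seeing the data, with 5 to 19 rule transcripts (-4.49), and the share over the nucleus with 5 to 19 rule transcripts (-7.24; each exact permutation p = 0.0286). Density turned negative with 5 to 19 rule transcripts (-49.3 per mm2, likewise added), when thinned (-15.3), without Control section 3 (-49.0) and without PITX1+ section 1 (-9.66), and ran from -49.0 to 41.3 with 1 section left out. Wound shares were 3.32%, 2.11% and 1.44% with at least 10 rule transcripts. The cause of these changes was not tested. With labels permuted within each slide, also added after seeing the data, the 5 section measures kept their direction (exact permutation p of 0.111 to 0.556), and 0.0556 is the smallest p this allows. No paired analysis was possible because the sections carry no replicate number. Slide entered the gene fits as a covariate.

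Limits are the few sections, 1 Control section on the male slide and in the wounds, and depth. Control section 3 held 47863 transcripts in cornifying cells, and 3 counts there are 62.7 CPM.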
